A study of Sus scrofa with 6 samples.

Results

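TGF-beta and BMP signalling genes were examined in the renal medulla of pigs after cardiopulmonary bypass (CPB). The genes are 10 named ligands, receptors and SMAD proteins, TGFB1, TGFB2, TGFB3, TGFBR1, TGFBR2, TGFBR3, BMP2, BMP7, SMAD3 and SMAD7, and every probe set whose array annotation gives 1 of these symbols and no other was taken. A probe set is a group of short probes on the array that together measure 1 transcript. This gave 14 probe sets for 7 of the 10 genes, out of 23999 probe sets on the array without its controls. TGFBR2, BMP2 and SMAD7 matched no probe set with a single symbol and were not analysed here. A further probe set lists BMP7 together with another gene and was left out.

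The CPB group had 2.5 hours of cardiopulmonary bypass, in which a pump and oxygenator take over the circulation, through a neck dissection under general anaesthesia. The Sham animals were anaesthetised for the same 2.5 hours and had the neck opened but were not put on the pump. Both groups were adult female Large White-Landrace crosses, both were given systemic heparin, and blocks of outer medulla were collected 24 hours after the intervention. RNA from 3 CPB and 3 Sham animals was hybridised to Affymetrix porcine arrays, 1 animal per array, so n = 3 animals in each group. No untreated animals were among the 6 arrays, so the anaesthesia, heparin and neck dissection are shared by both groups.

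Transforming growth factor beta (TGF-beta) ligands are secreted in a latent form, and once activated they bind a type II receptor, which then phosphorylates a type I receptor. The type I receptor phosphorylates receptor SMADs, which join SMAD4, enter the nucleus and change transcription of matrix, cell cycle and inhibitor genes. Bone morphogenetic proteins (BMPs) signal the same way through their own receptors and SMADs. In the kidney, TGF-beta signalling is known for driving extracellular matrix deposition and fibrosis, and BMP7 for its role in nephron formation and for opposing TGF-beta in injured tubules.

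Intensities are given as RMA made them, linear and in arbitrary units, and differences are of mean log2 intensity, CPB minus Sham, with the standard error (SE). RMA, robust multi-array averaging, corrects background, gives all arrays the same distribution and summarises each probe set, so the array medians lay between 94.3 and 96.5. An intensity depends on its probes, so percentiles of mean intensity are given only to show how bright a probe set was, and the order of different probe sets is not an order of transcript levels. The limma test was fitted to all probe sets with Benjamini-Hochberg adjustment, and calls were also made from that fit at the threshold the study used, 1.6-fold or more with an unadjusted p under 0.05. Precision is limited by having 6 arrays, and an exact permutation test of 3 animals against 3 cannot give a two-sided p below 0.1.

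The labelled tissue and the uniformity of the blocks were examined with lists of cell type markers. Of the markers of tubules that run through the medulla, 3 of 5 for the thick ascending limb and 4 of 10 for the collecting duct lay above percentile 90 of all probe sets by mean intensity, while CLDN14 (percentile 31.8) and SCNN1A (25.8) were dim. KCNJ1, the potassium channel of the thick ascending limb, was at 835 to 2127 in CPB and 881 to 2219 in Sham animals, and AQP3, a water channel of the collecting duct, was at 1080 to 5437 in CPB and 1048 to 4831 in Sham animals. Proximal tubule genes were also bright and differed widely between animals of the same group. FBP1, an enzyme of gluconeogenesis in proximal tubule, was at 507 to 8212 in CPB and 310 to 6336 in Sham animals. All 18 measured proximal tubule markers had CPB 1, CPB 3 and Sham 2 as their 3 highest arrays. The mean of these markers, as log2 intensity centred over the 6 arrays, was 1.3, -1.52 and 1.59 in CPB 1 to 3, against -2.27, 1.2 and -0.29 in Sham 1 to 3. CPB 2 was thus on the low side with Sham 1 and Sham 3, and Sham 2 on the high side with CPB 1 and CPB 3. The Sham arrays were also spread among themselves, with Sham 1 further from Sham 3 than Sham 2 was.

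No TGF-beta or BMP signalling gene was called as different between CPB and Sham medulla. None of the 14 probe sets passed an adjusted p of 0.05 (limma adjusted p = 0.995 for each), where 0% of all probe sets did. At the study's threshold 0 of 14 were called, against 0.304% of all probe sets, and at an unadjusted p under 0.05 it was also 0 of 14, against 1.4%. Groups did not overlap for 0 of 14 probe sets, against 5.27% of all. With backgrounds this low, a count of 0 among 14 is close to what the whole array shows. On the brightest probe set of each gene, the CPB mean was lower for 6 of 7 genes, SMAD3 being the exception, and the median difference was -0.10, against 0.03 over 6765 genes, of which 56.2% had the higher mean in CPB.

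**Figure D1:**
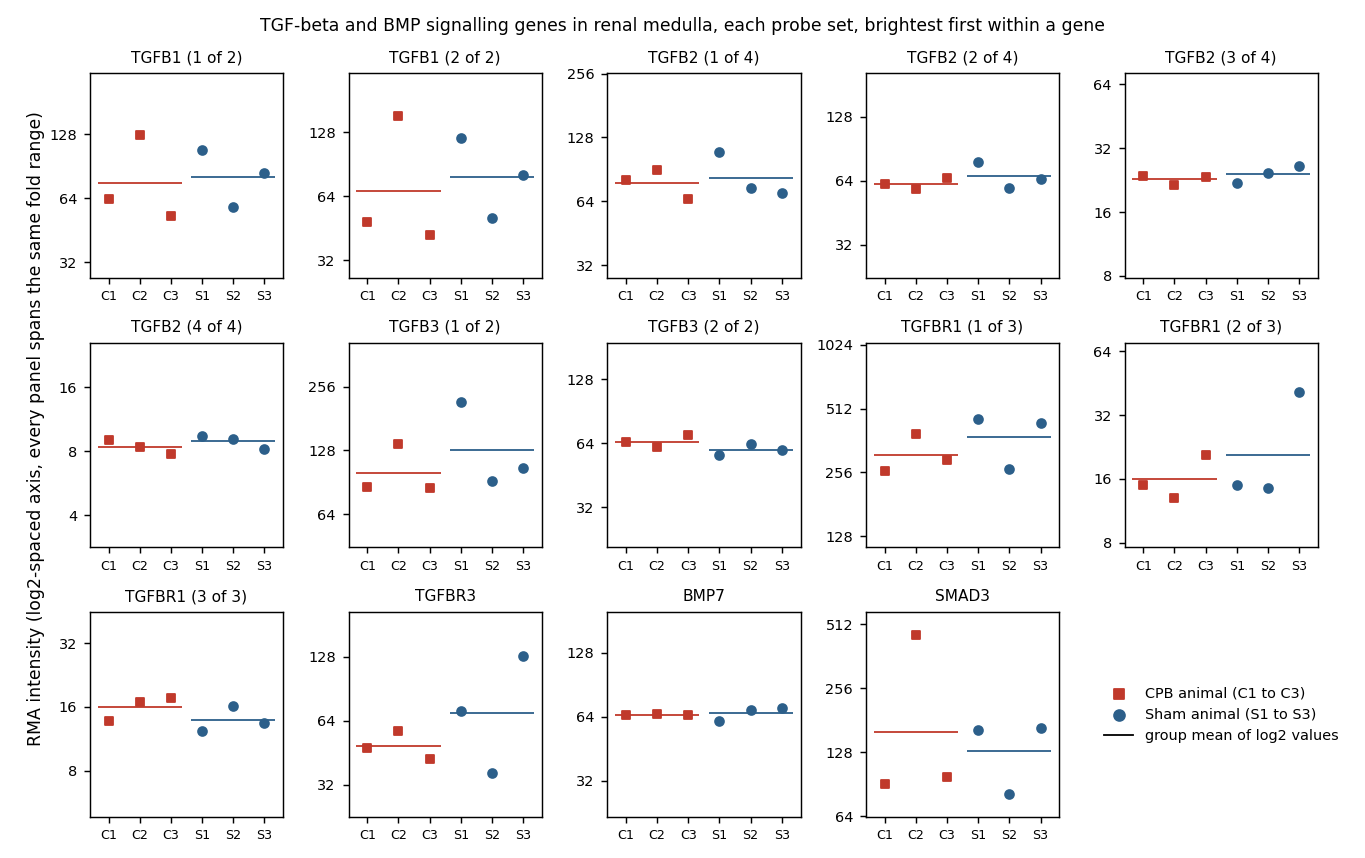
RMA intensity of each of the 14 probe sets in CPB animals (C1 to C3, red squares) and Sham animals (S1 to S3, blue circles), on a log2-spaced axis with the same fold range in every panel and lines at the group means of log2 values. The groups overlap in all 14 panels, and C2 stands above C1 and C3 for TGFB1 and SMAD3.

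Among the ligands, TGFB1 encodes the isoform most studied in renal fibrosis. On its brighter probe set, TGFB1 had an intensity of 63.2, 127 and 53.0 in CPB 1 to 3, against 108, 58.1 and 84.2 in Sham 1 to 3. CPB 2 was the highest of all arrays and CPB 3 the lowest, so the Sham values lay inside the CPB range. TGFB1 averaged 81.0 ± 40.0 in CPB and 83.5 ± 25 in Sham animals (SD, n = 3 each), a difference of -0.10 (SE 0.39, 95% confidence interval -1.06 to 0.85). The second TGFB1 probe set gave 48.4, 153 and 42.1 in CPB, against 121, 50.8 and 80.6 in Sham animals. CPB 2, Sham 1 and Sham 3 were the 3 highest arrays on both TGFB1 probe sets, and the difference on the second was -0.22 (SE 0.57).

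TGFB2, a ligand with prominent roles in development, was measured by 4 probe sets and varied less between animals. Its brightest had 80.8, 89.6 and 65.4 in CPB, against 110, 73.7 and 70.3 in Sham animals. Sham 1 was highest and CPB 3 lowest, and the groups overlapped. The difference for TGFB2 was -0.09 (SE 0.22, interval -0.63 to 0.45). The 3 other TGFB2 probe sets differed by -0.12, -0.08 and -0.09, and the highest array was 1.22 to 1.35 times the lowest. The dimmest of them, at 7.74 to 9.04 in CPB and 8.17 to 9.46 in Sham animals, lay at percentile 3.53 of all probe sets by mean intensity. For all 4 TGFB2 probe sets the interval lay inside 1.6-fold in both directions, which is 0.68 on the log2 scale.

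TGFB3 encodes the third TGF-beta isoform. Its brighter probe set had 86.3, 138 and 85.6 in CPB, against 215, 91.6 and 106 in Sham animals. Sham 1 was 1.56 times the next array, CPB 2, and the remaining 4 arrays lay between 85.6 and 106. The TGFB3 difference was -0.35 (SE 0.37, interval -1.26 to 0.56). The second TGFB3 probe set had the opposite sign, with 64.7, 61.4 and 69.7 in CPB, against 56.7, 63.4 and 59.5 in Sham animals. That difference was 0.12 (SE 0.11, interval -0.15 to 0.40), so the probe sets of TGFB3 did not share a direction and neither passed the test.

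BMP7, made by kidney epithelium, was the most even of the 7 genes. It had 65.2, 65.7 and 65.2 in CPB, against 60.8, 69.1 and 70.6 in Sham animals. The CPB arrays lay within the Sham range, and the highest array was 1.16 times the lowest. BMP7 differed by -0.03 (SE 0.11, interval -0.30 to 0.24). A difference of 1.6-fold in either direction lies outside that interval. The BMP7 probe set was at percentile 38.5 of all by mean intensity, and how far it follows its transcript was not tested.

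Among the receptors, TGFBR1 encodes the type I receptor kinase of TGF-beta. Its brightest probe set lay at percentile 83.5 of all probe sets and had 261, 388 and 293 in CPB, against 456, 264 and 439 in Sham animals. Sham 1 and Sham 3 were highest, CPB 2 came next, and CPB 1, Sham 2 and CPB 3 lay together below. TGFBR1 averaged 314 ± 66.2 in CPB and 386 ± 106 in Sham animals (SD, n = 3 each), a difference of -0.28 (SE 0.27, interval -0.93 to 0.37). Both other TGFBR1 probe sets were dim, at percentiles 12 and 9.5. The brighter of these had 15.0, 13.0 and 20.8 in CPB, against 15.0, 14.4 and 41.2 in Sham animals, so its difference of -0.38 (SE 0.44) came with 1 high array, Sham 3. The third probe set differed by 0.21 (SE 0.16).

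TGFBR3, also called betaglycan, is a co-receptor that presents TGF-beta, TGFB2 in particular, to the signalling receptors. Its probe set had 47.9, 57.6 and 42.4 in CPB, against 71.0, 36.2 and 130 in Sham animals. The CPB values were close together, while Sham animals held both the highest array, Sham 3, and the lowest, Sham 2, which were 3.58-fold apart. TGFBR3 averaged 49.3 ± 7.71 in CPB and 79.0 ± 47.2 in Sham animals (SD, n = 3 each). Its difference of -0.50 (SE 0.45, interval -1.62 to 0.61) was the lowest of the 14, with an unadjusted p of 0.309 and an adjusted p of 0.995 by limma.

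SMAD3, the receptor SMAD that carries much of the profibrotic TGF-beta signal, had the widest spread of the 14 probe sets. It had 90.3, 456 and 98.2 in CPB, against 164, 81.4 and 166 in Sham animals. CPB 2 stood alone, 2.74 times the next array, and the highest array was 5.6 times the lowest. SMAD3 averaged 215 ± 209 in CPB and 137 ± 48.3 in Sham animals (SD, n = 3 each), a difference of 0.29 (SE 0.68, interval -1.38 to 1.96). Without CPB 2 the SMAD3 difference was -0.47, and without Sham 2 it was -0.05, so the sign depended on either of these animals.

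**Figure D2:**
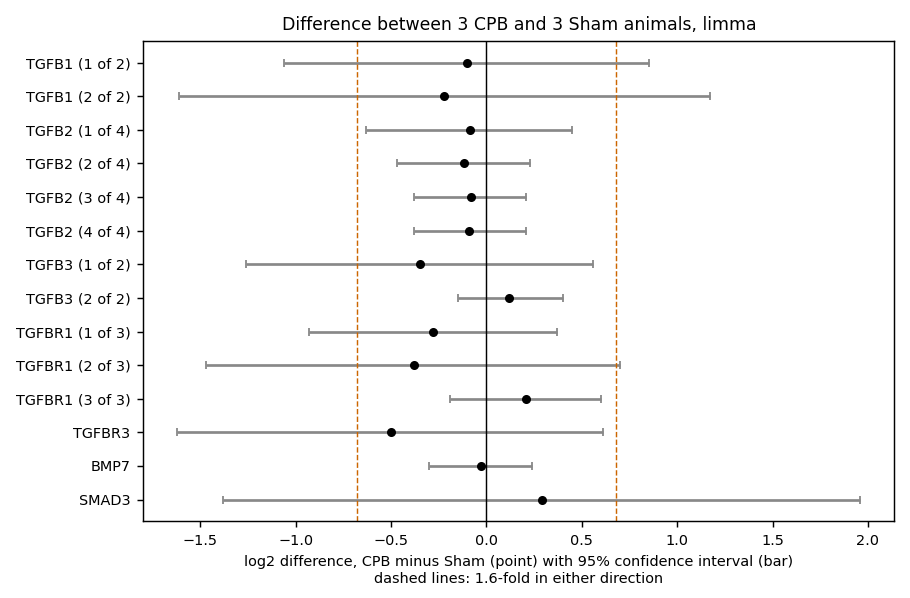
Difference of mean log2 intensity, CPB minus Sham (points), with 95% confidence intervals from limma (bars) for the 14 probe sets, ordered by role and numbered by brightness within a gene, dashed lines marking 1.6-fold in either direction. Every interval includes 0, and 7 of 14 lie wholly between the dashed lines.

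The precision differed between the probe sets. For 7 of 14, the 4 of TGFB2, the dimmer one of TGFB3, the dimmest of TGFBR1 and that of BMP7, the interval lay inside 1.6-fold in both directions. These 7 were at percentiles 3.53 to 44.5 of all probe sets by mean intensity. How far probe sets this dim follow their transcript was not tested, so the intervals apply to the measured intensity. For the other 7, which include both TGFB1 probe sets, TGFBR3 and SMAD3, the interval reached 1.6-fold in at least 1 direction. A difference of that size is thus not excluded for them with 3 animals per group. Among all 23999 probe sets, 15009 had such a narrow interval.

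The same animals were high for most of these genes. CPB 2, Sham 1 and Sham 3 were the 3 highest arrays for 5 of 7 genes on the brightest probe set, TGFB1, TGFB3, TGFBR1, TGFBR3 and SMAD3, and for 6 of 14 probe sets. Over all genes with 1 symbol that share was 21.7%, and over all probe sets 16.4%. The opposite trio, CPB 1, CPB 3 and Sham 2, was highest for 0 of 7 genes, against 23.0% of all genes. By probe set it was highest for 1 of 14, the second of TGFB3, against 21.4% of all. The trios were chosen after the values had been seen, so the counts are a description.

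Averaged over the 7 genes, the centred log2 intensity was -0.29, 0.42 and -0.36 in CPB 1 to 3, against 0.37, -0.38 and 0.24 in Sham 1 to 3. Smooth muscle and pericyte, urothelium, endothelial, collecting duct, and myeloid and granulocyte markers had the same 3 arrays highest by their mean. Thick ascending limb, fibroblast and matrix, and lymphocyte markers did not. Smooth muscle and pericyte markers (10 genes) were at -0.47, 0.36 and -0.52 in CPB, against 0.58, -0.35 and 0.40 in Sham animals. Urothelium markers (6 genes), from the lining of the renal pelvis, were at -0.71, 0.50 and -0.74 in CPB, against 0.38, -0.62 and 1.19 in Sham animals, and the brightest of the 6 lay at percentile 71.4 of all probe sets. Endothelial markers (13 genes) were at -0.36, 0.39 and -0.50 in CPB, against 0.52, -0.17 and 0.11 in Sham animals. The myeloid and granulocyte mean differed little, from -0.15 to 0.16. Gene by gene, these 3 arrays were highest for 6 of 10 smooth muscle and pericyte, 3 of 6 urothelium and 7 of 13 endothelial markers. The count was 5 of 10 for collecting duct, 5 of 16 for myeloid and granulocyte and 5 of 11 for lymphocyte markers. Fibroblast and matrix markers were at 0.09, -0.05 and -0.42 in CPB, against 0.50, -0.24 and 0.13 in Sham animals, and the count was 3 of 18. The opposite trio was highest for 3 of 10 collecting duct and 4 of 16 myeloid and granulocyte markers. Proximal tubule markers ran the other way on every array, high where the signalling genes were low. The part of these cell types in the levels of the signalling genes was not tested, and in bulk tissue fewer cells of a type and less RNA per cell cannot be told apart.

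**Figure D3:**
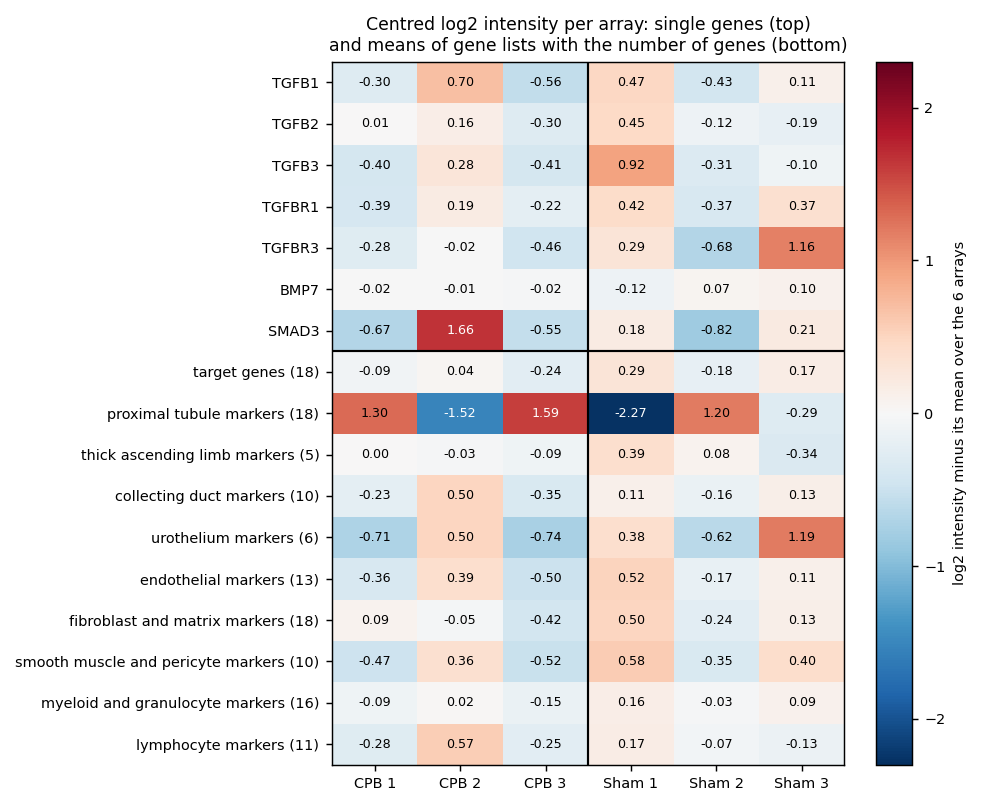
Log2 intensity minus its mean over the 6 arrays (colour and printed value) for the 7 signalling genes on their brightest probe set (top) and for the mean of each gene list (bottom, number of genes in parentheses), CPB arrays left of the line and Sham arrays right. SMAD3 reaches 1.66 in CPB 2 and TGFBR3 1.16 in Sham 3, and proximal tubule markers are lowest in Sham 1 at -2.27.

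Several values changed when arrays were left out, among them CPB 2 and Sham 2, which lay on the side of the other group's arrays for the proximal tubule markers. Without Sham 2 and CPB 2, the study's threshold was met by 5 of the 14, all lower in CPB, where 12.8% of all probe sets met it. TGFB1 differed by -0.72 (SE 0.19) and -1.13 (SE 0.24) on its probe sets, TGFBR1 by -0.70 (SE 0.12), TGFBR3 by -1.09 (SE 0.32) and SMAD3 by -0.81 (SE 0.12). Their limma adjusted p values lay between 0.0537 and 0.155, so 0 of the 14 passed 0.05, where 719 of all 23999 probe sets did. Without Sham 2 alone, TGFBR3 was the 1 probe set of the 14 at the threshold, at -0.97 (SE 0.30, limma adjusted p = 0.533), where 2.92% of all were. Without Sham 3, its highest array, the TGFBR3 difference was -0.05. Without Sham 1, 0 of 14 met the threshold, where 0.242% of all probe sets did. In that fit 4 of 7 genes had the higher mean in CPB and the median difference was 0.03. Without CPB 2, 0 of 14 met the threshold, where 2.89% of all did. There 0 of 7 genes were higher in CPB and the median was -0.47. The 4 arrays that remained without both Sham 2 and CPB 2 were 2 CPB arrays high and 2 Sham arrays low in proximal tubule markers, so group and marker level cannot be told apart in them, and these values are a description.

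With the mean of the proximal tubule markers as a covariate and all 6 arrays kept, the study's threshold was met by 0 of 14. Of all probe sets 0.438% met it. TGFB1 then differed by 0.19, TGFB2 by 0.04 and SMAD3 by 0.76, and 3 of 7 genes had the higher value in CPB. With the urothelium markers as the covariate TGFB1 differed by 0.25 and SMAD3 by 0.97. Again 0 of 14 met the threshold, where 0.329% of all did. Both SMAD3 values lay beyond the fold minimum, 0.68 on the log2 scale, but SMAD3 was not called.

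The rest of the pathway was read from 6 role lists that hold 146 genes, 58 of which were measured by 99 probe sets. No probe set of them passed the adjusted p of 0.05 and 0 of 99 met the study's threshold, while 2 of 99 had an unadjusted p under 0.05 and 5 of 99 did not overlap, all 5 with CPB above. These shares stand beside the 0.304%, 1.4% and 5.27% of the whole array. Of the 1264 probe sets without overlap on the whole array, 811 had CPB above and 453 had CPB below. The CPB mean was higher for 25 of the 58 genes, and their median difference was -0.09.

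Of the 10 genes in the list of other ligands, 9 had the higher mean in CPB, with a median difference of 0.09, and without BMP1 it was 8 of 9, with a median of 0.07. INHA, the inhibin alpha subunit that antagonises activin, was at 121, 125 and 119 in CPB, against 97.3, 118 and 104 in Sham animals, and did not overlap, with a difference of 0.20 (SE 0.12). BMP1, which the list holds by its name, is a protease that processes procollagen and not a ligand. Its brighter probe set was at 164, 154 and 172 in CPB, against 134, 152 and 106 in Sham animals. The groups did not overlap on this BMP1 probe set either, and it differed by 0.34 (SE 0.16, interval -0.06 to 0.73). On the second BMP1 probe set the groups overlapped, Sham 2 was the highest array, and the difference was 0.15 (SE 0.22). GDF11, a ligand, and FST, an activin-binding inhibitor from another list, also had every CPB array above every Sham array on 1 probe set each. These probe sets differed by 0.25 and 0.05 and were dim, at percentiles 16.9 and 6.48. On the brighter probe set of each gene the groups overlapped, with differences of 0.15 and -0.02. Both genes were named after their values were seen.

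Of 8 other receptors, 4 had the higher and 4 the lower mean in CPB. BMPR1B, a type I BMP receptor, had 96.6, 160 and 45.2 in CPB, against 283, 131 and 171 in Sham animals on its brightest probe set. CPB 1 and CPB 3 were the lowest arrays, CPB 2 lay above Sham 2, and the difference was -1.06 (SE 0.51, interval -2.32 to 0.20, limma adjusted p = 0.995). The dimmer BMPR1B probe sets differed less, by -0.58 (SE 0.37) and -0.13 (SE 0.12). ACVR1, a type I receptor for activins and BMPs, differed by -0.27 (SE 0.17). Both measured SMADs had the lower mean in CPB, SMAD1, which carries BMP signals, by -0.20 (SE 0.43) and SMAD4, the shared partner of all receptor SMADs, by -0.15 (SE 0.17). SMAD1 had 205, 426 and 185 in CPB, against 382, 177 and 360 in Sham animals, with the same 3 arrays high as for SMAD3.

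Among 9 genes of latency, activation and extracellular inhibition, 8 had the lower mean in CPB, with a median difference of -0.30. ASPN, a small matrix proteoglycan that binds TGF-beta, had 73.3, 52.2 and 54.1 in CPB, against 230, 50.4 and 151 in Sham animals. Sham 1 and Sham 3 were far above the other 4 arrays, and Sham 2 was the lowest of all, so the difference of -1.03 (SE 0.55, interval -2.38 to 0.33) did not pass the test. ITGAV, the integrin alpha v chain of the complexes that release active TGF-beta, had 519, 447 and 482 in CPB, against 804, 463 and 675 in Sham animals, a difference of -0.39 (SE 0.22) with the same 2 Sham arrays high.

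Intracellular regulators (11 genes) had 4 with the higher mean in CPB. FKBP1A, the immunophilin that keeps the type I receptor inactive without ligand, had the smallest unadjusted p of the 58 genes, 0.0406 by limma, with an adjusted p of 0.995. It had 567, 666 and 634 in CPB, against 543, 490 and 462 in Sham animals. The groups did not overlap, and the difference of 0.32 (SE 0.12) was 1.25-fold, below the fold minimum. ZFYVE16, an endosomal protein that binds SMADs, differed by -0.30 (SE 0.19). One dimmer probe set of USP9X, a deubiquitinase that acts on SMAD4, was named after its values were seen. At percentile 35.8, it had a difference of -0.49 (SE 0.19, unadjusted p 0.0423 and adjusted p 0.995 by limma). The brighter USP9X probe set, at percentile 91.3, differed by -0.14 (SE 0.21), and the groups overlapped on both.

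Of 18 target genes, 11 had the lower mean in CPB on the brightest probe set, with a median difference of -0.16. Over all their 27 probe sets, 14 had the higher and 13 the lower mean in CPB, and 0 of 27 were called. ID3, an inhibitor of helix-loop-helix factors that BMP signalling induces, had 641, 806 and 471 in CPB, against 1200.0, 689 and 980.2 in Sham animals. Sham 1 and Sham 3 were highest and CPB 2 lay above Sham 2, and the difference was -0.58 (SE 0.28, interval -1.26 to 0.11). ID1, of the same family, had 342, 276 and 300 in CPB, against 387, 378 and 332 in Sham animals, a difference of -0.26 (SE 0.13) with only CPB 1 above a Sham array. The mean of all 18 targets was -0.09, 0.04 and -0.24 in CPB, against 0.29, -0.18 and 0.17 in Sham animals, as centred log2 intensity.

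**Figure D4:**
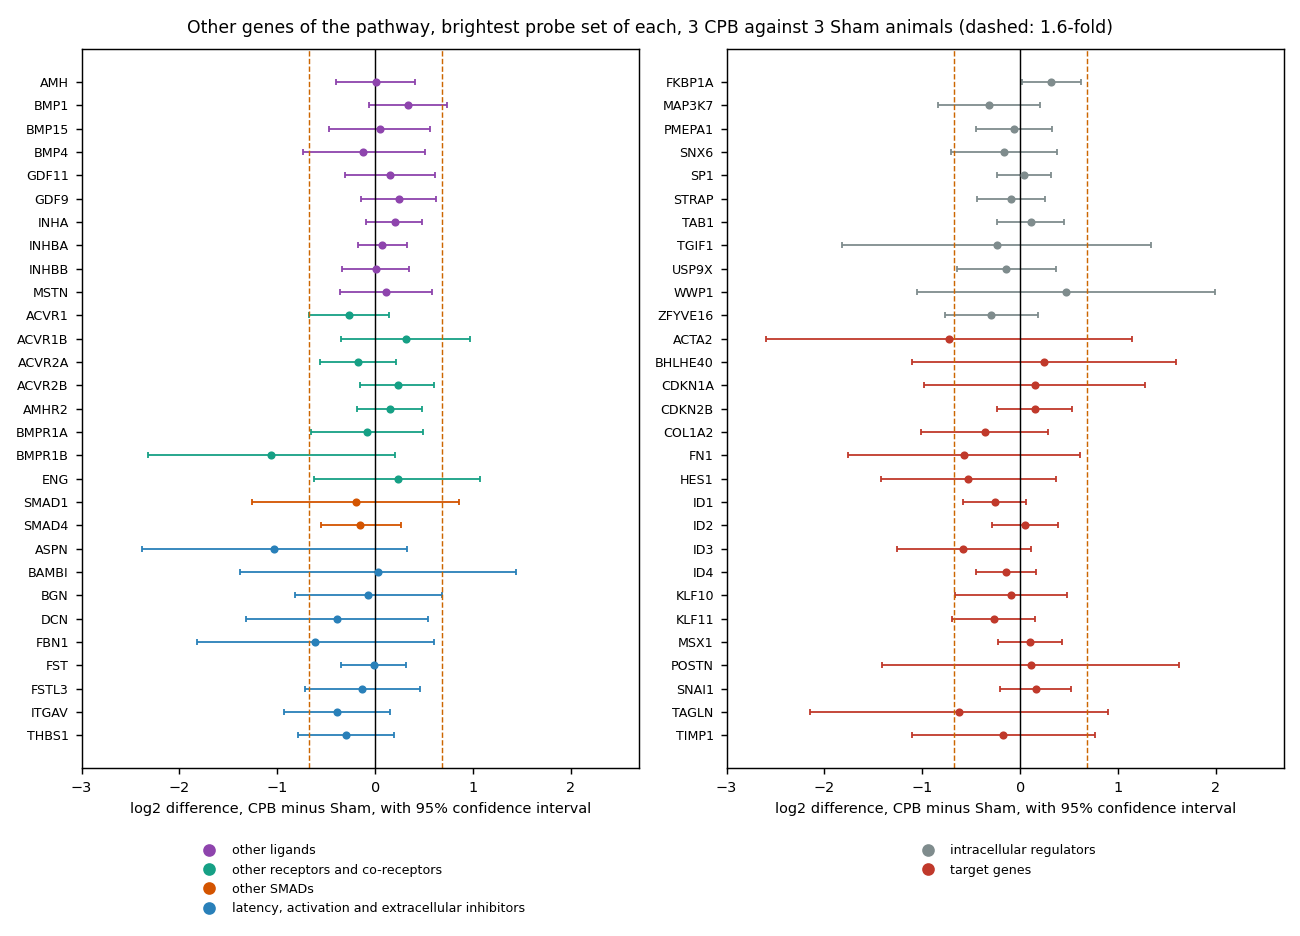
Difference of mean log2 intensity, CPB minus Sham, with 95% confidence intervals from limma for 58 other pathway genes on the brightest probe set of each, coloured by role. The interval of FKBP1A alone excludes 0, BMPR1B and ASPN lie lowest at -1.06 and -1.03, and BMP4 is the 1 ligand whose mean is lower in CPB, at -0.12.

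The genes whose log2 intensity ran most like 4 of the signalling genes over the 6 arrays are given as a description, since many genes reach a high correlation over 6 arrays that share large differences between animals. For TGFBR3 these were FKBP14, RNF146 and TBRG1 (Pearson r of 0.996, 0.995 and 0.993). FKBP14 had 46.7, 55.9 and 38.8 in CPB, against 80.4, 35.6 and 149 in Sham animals. For TGFBR1 they were CAV1, the caveolin coat protein, with r = 0.997, and RPAP3 and PLAGL1, both with 0.996. CAV1 had 279, 980.4 and 370.1 in CPB, against 1813, 310.2 and 1417 in Sham animals, the same order of arrays over a wider range. For TGFB3 they were SRBD1, CRYAB and TMX4 (0.993, 0.992 and 0.991), and for SMAD3 they were UBE2Q1, UBA3 and SH3GLB2 (0.998, 0.996 and 0.995).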

How the data were processed

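The authors scanned 1 Affymetrix porcine array per animal (3 CPB, 3 Sham) and processed the arrays together with RMA, which the processing notes also name. The deposited table holds linear RMA intensity values of 24123 probe sets, which were put on the log2 scale here. How far single probes stood above background is not known, and the genome build is not given in the sources used here.

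After 124 control probe sets were left out, 23999 were fitted with limma 3.58.1 (lmFit, eBayes) in R 4.3.3, group as the only term, Benjamini-Hochberg adjusted. Calls at the study's threshold, 1.6-fold or more with an unadjusted p under 0.05, come from this fit. The test was tried on simulated data whose noise was independent between probe sets. In the real arrays many probe sets share differences between animals, so the trial does not give error rates for them. Gene names are those of the array annotation (10099 probe sets with 1 symbol, 198 with several). Centred values are log2 intensities minus the mean over 6 arrays, on the brightest probe set of each gene.

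The members, gene lists, tests and alternatives were chosen with earlier results of these data known. Genes named are every member, the 2 genes with the smallest unadjusted p in each role list, those at the study's threshold, and the 3 genes most correlated with each of the 4 members with the smallest unadjusted p on the brightest probe set. The alternatives comprised the methods' t-test (linear or log2 values), array weights, an intensity trend with robust prior, repeated quantile normalization, median centring, the mean over all probe sets of a gene, leaving out the dimmest 25% of probe sets, keeping controls, fold minimums of 1.5 and 2, the replicate number as a block, marker covariates, each array left out in turn, and Sham 2 and CPB 2 left out together. Figures were drawn with matplotlib 3.10.9.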

Additional observations from a re-analysis of the deposited data

How the results depend on the processing

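With array weights, whose fit stopped before it converged, 2116 of all probe sets, or 8.82%, were called at the study's threshold. They included 1 of the 14 signalling probe sets (TGFBR3) and 13 of the 99 of the other pathway. In that fit 0 of 7 genes had the higher mean in CPB, the median difference was -0.61 and SMAD3 was at -0.61. Without Sham 2 and CPB 2, 719 probe sets passed the adjusted p and 3070, or 12.8%, met the threshold. The 3070 included 5 of 14 signalling and 15 of 99 other pathway probe sets. In that fit 0 of 7 genes were higher, the median was -0.72 and SMAD3 was at -0.81. With the proximal tubule covariate 3 of 7 genes were higher. In that fit 1 of 99 other pathway probe sets was called, where 0.438% of all probe sets were. It was the brightest of BMPR1B, at -0.71 with an unadjusted p of 0.044 by limma. TGFB1, TGFB2, SMAD3 and SMAD1 were at 0.19, 0.041, 0.76 and 0.12. With the urothelium covariate 2 genes were higher, with TGFB1 at 0.25, SMAD3 at 0.97 and SMAD1 at 0.26. The methods' t-test gave 30 probe sets on log2 and 26 on linear values, and a fold minimum of 2 gave 21.

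Leaving out 1 array at a time gave 52 to 701 probe sets at the threshold (701, or 2.92%, without Sham 2, and 693, or 2.89%, without CPB 2). Of the 14 signalling probe sets 0 to 1 were called, and of the 99 of the other pathway 0 to 5. Of the 7 genes, 0 to 4 had the higher mean in CPB. The median difference of the 7 genes ranged from -0.47 without CPB 2 to 0.027 without Sham 1. The log2 difference ranged from -0.48 to 0.15 for TGFB1, from -0.21 to 0.12 for TGFB2, from -0.59 to 0.027 for TGFB3, from -0.53 to -0.14 for TGFBR1, from -0.97 to -0.053 for TGFBR3, from -0.095 to 0.013 for BMP7, from -0.47 to 0.70 for SMAD3 and from -0.57 to 0.028 for SMAD1. The cause of these changes was not tested. Arrays of the same replicate number did not deviate alike from their group means (correlations of deviations -0.389, -0.681 and -0.016). These values cannot show whether the animals were paired, since the labels give only a replicate number. With the replicate block 76 probe sets met the threshold, 0 of them signalling probe sets. The other alternatives kept every result's direction and side of the threshold.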
